A study of Mus musculus with 6 samples.

Results

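The Dlk1-Dio3 cluster is a run of microRNA (miRNA) hairpins on mouse chromosome 12, and its miRNAs were followed here in inflamed mouse pancreas from mice with an excess of blood triglycerides (HTG, as the sample titles have it) and from control mice. Its members were chosen by name alone: the rows of the deposited count table that carry 1 of 51 miRNA numbers assigned to the locus. Of the 1077 mature miRNAs in the table, 89 were members. They covered 47 of the 51 numbers, and the other 4 (miR-432, miR-496b, miR-544 and miR-654) had no row. Small RNA had been sequenced from 3 libraries of pancreatitis tissue from HTG mice and 3 libraries of pancreatitis tissue from controls. The labels give no strain, age, sex or time, and they do not say how either condition was brought about. Separate animals per library are not stated either, so that the p-values reflect library-to-library spread alone, possibly of technical origin.

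In mouse, the miRNAs of this locus are made from the maternally inherited chromosome, within long noncoding transcripts that run through Meg3, the strand opposite Rtl1, Rian and Mirg. The paternal chromosome expresses the protein-coding genes Dlk1, Rtl1 and Dio3 instead. A hairpin is cut out of such a transcript and then yields up to 2 mature miRNAs, 1 from its 5p arm and 1 from its 3p arm. A mature miRNA finds messenger RNAs mainly through its seed, bases 2 to 8 from its 5′ end. The cluster is best known from brain, placenta and embryonic tissue, and in humans its miRNAs have been described in pancreatic islets.

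On GRCm38.p6, the RefSeq mature sequence was found for 85 of the 89 members, and all 85 lay on chromosome 12. Their hairpins ran from chr12:109563692-109563785 (Mir770, in an exon of Meg3) to chr12:109743715-109743795 (Mir410, in an exon of Mirg). The + strand carried 83 of them. The remaining 2 were the arms of miR-299b, whose hairpin lies on the - strand opposite that of miR-299a. In GENCODE M21 gene models, 10 members from 5 hairpins lay opposite an exon of the protein-coding gene Rtl1, 23 lay in Mirg (15 in exons and 8 in introns) and 3 in introns of Rian. A further 47 lay in no other gene model of either strand. The hairpin coordinates given below are on the + strand.

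The 8 most abundant members are shown first, since they carried most of the reads of the cluster. The seed is in capitals.
miR-127-3p: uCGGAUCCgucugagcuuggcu
miR-379-5p: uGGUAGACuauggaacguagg
miR-411-5p: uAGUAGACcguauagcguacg
miR-541-5p: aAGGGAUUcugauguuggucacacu
miR-434-3p: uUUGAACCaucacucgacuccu
miR-369-3p: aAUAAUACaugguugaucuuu
miR-136-3p: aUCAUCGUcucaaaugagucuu
miR-434-5p: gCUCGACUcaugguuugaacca

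The members with the smallest p in the group comparison, with groups that did not overlap or with the largest spread over the libraries follow in the same form. No RefSeq sequence was matched for miR-376c-3p, which belongs with them.
miR-136-5p: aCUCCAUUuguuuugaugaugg
miR-370-3p: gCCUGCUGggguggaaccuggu
miR-666-5p: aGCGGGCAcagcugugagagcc
miR-666-3p: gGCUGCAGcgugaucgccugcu
miR-300-3p: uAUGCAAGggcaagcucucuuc
miR-381-3p: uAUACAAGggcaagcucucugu
miR-154-3p: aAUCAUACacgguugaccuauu
miR-410-3p: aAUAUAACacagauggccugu
miR-380-5p: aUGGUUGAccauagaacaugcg
miR-299a-5p: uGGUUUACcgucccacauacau
miR-299b-5p: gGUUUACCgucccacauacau
miR-134-5p: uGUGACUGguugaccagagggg
miR-496a-3p: uGAGUAUUacauggccaaucuc

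The 85 sequences held 79 distinct seeds, so most members differed in the bases that choose a target. Only 6 seeds were held by more than 1 member. The seed GGUAGAC joined miR-379-5p with the rare miR-1193-5p, AUGUAAC joined miR-379-3p with miR-411-3p, and AUGUGGG joined miR-299a-3p with miR-299b-3p. Outside the cluster, 5 member seeds also occurred in other rows of the table. One of these was AUAUAAC of miR-410-3p, at a mean level of 8.30 CPM over the 6 libraries, which miR-344d-3p and miR-344e-3p also carry, at 0.571 CPM together. Here and below, a level is in CPM, the counts of a miRNA scaled to a fixed library total and corrected by the library's trimmed mean of M-values (TMM) factor, a scaling that corrects for the share taken by very abundant miRNAs.
miR-379-3p: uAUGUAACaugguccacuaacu
miR-411-3p: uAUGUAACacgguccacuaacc
miR-1193-5p: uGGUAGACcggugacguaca

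Several pairs are alike over most of their length. Compared base by base from the 5′ end, miR-300-3p and miR-381-3p differed at 3 of 22 bases, miR-379-3p and miR-411-3p at 2 of 22, and miR-376b-5p and miR-376c-5p at 1 of 22. The seeds of miR-300-3p (AUGCAAG) and miR-381-3p (AUACAAG) are not the same. The 18 bases of miR-299b-3p matched the start of miR-299a-3p without a mismatch. The counts of miR-299a and miR-299b were nearly the same in every library, for example 44 and 44 for the 5p arms in HTG 1, and cannot be assigned to 1 of them. The handling of reads that match several miRNAs is not stated.

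The libraries held 6514498 to 18384606 counts in HTG and 8920079 to 19773579 in control. None of the 24 markers in 6 cell type lists was at 0 in any library. The 4 acinar markers, miRNAs of the enzyme-secreting cells, summed to 317942, 527770 and 510321 CPM in HTG 1, 2 and 3 and to 437322, 413986 and 318992 CPM in control 1, 2 and 3. The 4 stellate and mesenchymal markers summed to 33555, 17238 and 19653 CPM in HTG and to 58231, 23520.0 and 14346 CPM in control, highest in the library numbered 1 of each group. That sum was almost all miR-143-3p. Of the 4, miR-143-3p and miR-145a-5p were highest in library 1 of both groups, while miR-199a-5p was lowest there in both and miR-214-3p was highest in control 3 among the controls. The sum of the 3 neuronal markers was also highest in library 1 of each group. It was 347 against 240 and 246 CPM in HTG and 445 against 307 and 288 CPM in control. Of the 3, miR-128-3p was slightly higher in HTG 2 (122.3 CPM) than in HTG 1 (120.8 CPM). The 6 leukocyte markers ranged from 1168 to 6229 CPM in HTG, highest in HTG 1, and from 2340 to 4573 CPM in control, highest in control 2. Of these 6, 5 were highest in library 1 of both groups, and miR-223-3p alone, at 3510 CPM in control 2 against 663 in control 1, put control 2 first in the sum. The 4 islet markers ranged from 37273 to 49155 CPM in HTG and from 36029 to 43280 CPM in control, mostly miR-375-3p, and the 3 striated muscle markers from 193 to 249 CPM in HTG and from 190 to 601 CPM in control. Among the 24, the groups did not overlap for 1, the islet miRNA miR-7a-5p, at 4857, 5588 and 5284 CPM in HTG and 4373, 2348 and 2191 CPM in control. Its log2 fold change was 0.82 ± 0.27 (SE; unadjusted p = 0.0187, adjusted p = 0.996 in edgeR). In whole tissue, more cells of a type and more RNA per cell cannot be told apart.

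The cluster was a small part of the miRNA of this tissue. Its members took 0.247%, 0.154% and 0.156% of all counts in HTG 1, 2 and 3, and 0.197%, 0.144% and 0.154% in control 1, 2 and 3. The mean was 0.186% ± 0.0529 in HTG and 0.165% ± 0.0280 in control (SD, n = 3 each). The difference between the means was smaller than the SD of either group, a comparison that leaves the numbers of the libraries aside. After TMM scaling, the summed level was 2075, 1744 and 1729 CPM in the HTG libraries and 2010, 1479 and 1393 CPM in the controls. On this scale control 1 lay among the HTG libraries, and controls 2 and 3 lay below all 3 of them. Between libraries of the same number, HTG was the higher in 3 of 3 pairs, both in the share of counts and in the summed level.

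Between 78 and 84 of the 89 members were detected in the HTG libraries and between 76 and 82 in the controls, and 69 were detected in all 6. A filter on low counts kept 60 members for testing. The 29 others had totals of 1 to 69 counts over the 6 libraries and mean levels of up to 1.06 CPM, against a limit of 0.137 to 0.387 CPM that a count of 0 allows in a library (3 counts, counting error only). They included both arms of miR-377, miR-539, miR-679, miR-770 and miR-412. Among the 29, 3 had groups that did not overlap, all higher in HTG. They were miR-540-5p, at 1.29, 0.986 and 1.40 CPM in HTG and 0.455, 0.922 and 0.777 CPM in control, and miR-495-5p and miR-667-5p, with 3 and 7 counts in all. The last 2 rest on 1 or 2 counts a library in HTG and on 0 or 1 in control. Counts this low cannot show a difference. Without a filter, 8 of all 89 members separated on the higher side, where 3.34% of all 1077 miRNAs did. The filter kept 60 of the 89 but 488 of the 1077. The 1077 thus hold relatively more rows of few counts, and the comparison is not one of like with like.

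Reads were concentrated in a few members. The most abundant, miR-127-3p, held 22.3% of the mean level of the cluster and ranked 96th of all 1077 miRNAs. The top 4 members held 50.6% and the top 8 held 69.7%. Among the tested members, 5 averaged at least 100 CPM over the 6 libraries, 22 lay between 10 and 100, and 33 lay under 10. The highest mean, 387 CPM, was 304 times the lowest, 1.27 CPM for miR-380-5p. Such ratios between miRNAs also hold the preference of the adapter ligation for each sequence, which was not measured here. The plot of levels by library shows this order.

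**Figure D1:**
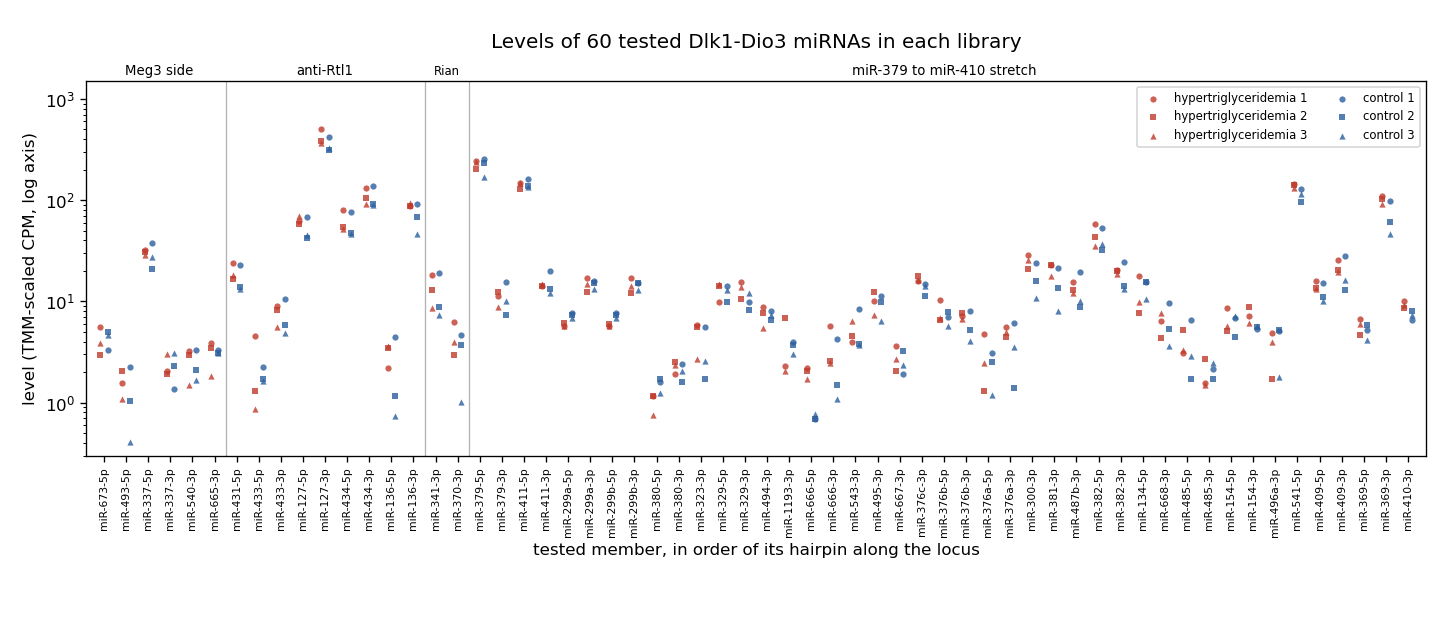
Level of each of the 60 tested members (TMM-scaled CPM, log axis) in the 3 HTG (red) and 3 control (blue) libraries, with members in the order of their hairpins along the locus and lines between its 4 segments. The high points are miR-127-3p at 315 to 502 CPM and the pair miR-379-5p and miR-411-5p, while between miR-411 and miR-541 the means reach at most 20.96 CPM apart from miR-382-5p at 43.2 CPM.

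The 10 members opposite Rtl1 (miR-431, miR-433, miR-127, miR-434 and miR-136), whose hairpins are complementary to the Rtl1 messenger RNA and which guide its cleavage in mouse, held 41.5% of the cluster. The 65 members of the stretch between miR-379 and miR-410, a block best studied in mouse neurons, held 54.9%. The Meg3 side (11 members) held 2.64%, mostly miR-337-5p, and miR-341 and miR-370 in Rian held 0.940%. Within the long stretch, the hairpins at its start (miR-379, miR-411) and near its end (miR-541, miR-369) gave far more reads than those between them.

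The tested members were compared between the groups with the two-sided quasi-likelihood test of edgeR over all 488 tested miRNAs, with Benjamini-Hochberg adjustment. Of the 60, 0 were called higher and 0 lower at an adjusted p under 0.05, where 0% of all tested miRNAs were called. DESeq2, limma-voom and limma on the deposited TPM values also called 0 members. At an unadjusted p under 0.05 edgeR had 1 member (miR-666-5p), or 1.67%, where 2.46% of all tested miRNAs had one. DESeq2 had 2 members (3.89% of all tested miRNAs), limma-voom had 2 (3.48% of all) and limma on TPM had 1 (2.46% of all). The smallest adjusted p among the members was 0.996 in edgeR. These fits leave the numbers of the libraries aside. With the replicate number as a block, edgeR called 0 members, with a smallest adjusted p of 0.559. In that blocked fit 3 members had an unadjusted p under 0.05, where 5.53% of all tested miRNAs had one. The intervals of the fit without the block were wide: the 95% interval of 32 members lay within -1 and 1 on the log2 scale, and the median SE was 0.33.

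The fitted values leaned to one side without any member passing. The log2 fold change of HTG over control was above 0 in 46 of the 60 members (76.7%), against 49% of all tested miRNAs, and its median was 0.15 against -0.01 over all. Members come from shared transcripts and are not independent, so this is a description and not a test. The split by segment was 9 of 9 tested members above 0 opposite Rtl1, 2 of 2 in Rian, 31 of 43 between miR-379 and miR-410 and 4 of 6 on the Meg3 side, with medians of 0.23, 0.35, 0.14 and 0.06. With scaling by library size alone, 41 members lay above 0 and their median was 0.14, where 39.5% of all tested miRNAs lay above 0.

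**Figure D2:**
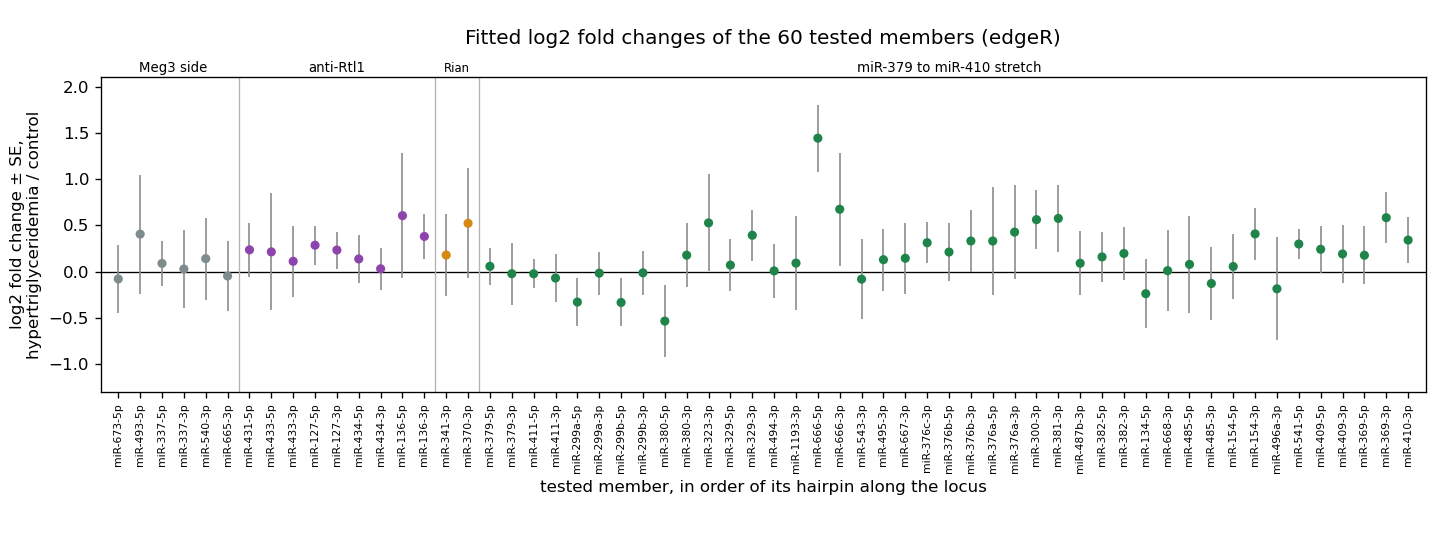
Fitted log2 fold change of HTG over control for the 60 tested members in locus order, with SE bars (edgeR, 3 libraries a group) and colours for the 4 segments. Most points lie a little above 0 with bars that cross it, from -0.53 for miR-380-5p to 1.44 for miR-666-5p.

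That lean moved with the libraries used. As a deviation from the mean of the 6 libraries on the log2 scale, the median member stood at 0.29, 0.04 and -0.01 in HTG 1, 2 and 3, and at 0.27, -0.24 and -0.27 in control 1, 2 and 3. Over all tested miRNAs these medians were between -0.04 and 0.12. In HTG 1, 49 of the 60 members lay above their mean, and in control 1, 50 did. In controls 2 and 3 only 18 and 11 did. HTG 1 was the highest library for 27 members and control 1 for 21, and control 3 was the lowest for 24. The cluster was thus high in 1 library of each group, the same 2 in which 5 of the 6 leukocyte markers, 2 of the 4 stellate and mesenchymal markers and 2 of the 3 neuronal markers were highest in their group. The islet miRNA miR-7a-5p also had a high control 1 and low controls 2 and 3, but HTG 1 was the lowest of its group. Of the other islet markers, miR-204-5p was highest in library 1 of both groups. Among the controls, miR-375-3p and miR-184-3p were highest in control 3. Of the 3 striated muscle markers, miR-133a-3p alone was highest in library 1 of both groups, and 0 of the 4 acinar markers were. Each acinar marker was lowest in HTG 1 among the HTG libraries. The part of those markers in the result was not tested.

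Set against the control of the same number, HTG was the higher library in all 3 pairs for 15 of the 60 members (25%), where 9.43% of all tested miRNAs were so. They included miR-127-3p, miR-434-5p, miR-300-3p, miR-381-3p and miR-369-3p. It was the lower in all 3 pairs for 3 members (5%), where 12.7% of all tested miRNAs were so.

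Leaving out single libraries moved the counts accordingly. Without control 1, 57 of 64 tested members lay above 0 (58.6% of all tested miRNAs), with a median of 0.44, and 12 had an unadjusted p under 0.05 in edgeR, where 7.33% of all tested miRNAs had one. None of them passed adjustment (smallest adjusted p = 0.266 in edgeR), where 2 of all 505 tested miRNAs did. Without control 3, 36 of 62 lay above 0 (47.6% of all) with a median of 0.05, and without control 2, 45 of 65 (46.7% of all) with a median of 0.07. Leaving out HTG 1 gave 40 of 63 (44% of all) and a median of 0.09, HTG 2 gave 47 of 62 (47.1% of all) and 0.17, and HTG 3 gave 47 of 61 (50.1% of all) and 0.26. In each of these 5 fits 1 member had an unadjusted p under 0.05 in edgeR, where 9% of all tested miRNAs had one without HTG 1, 2.18% without HTG 2, 2.19% without HTG 3, 1.76% without control 2 and 2.79% without control 3. Leaving out both number 1 libraries, which was tried once the data had been seen, put 51 of 64 above 0 (53.2% of all) with a median of 0.39. It gave 10 members an unadjusted p under 0.05 (13.8% of all) and 0 members an adjusted one, where 4 of all 509 tested miRNAs had an adjusted one.

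**Figure D3:**
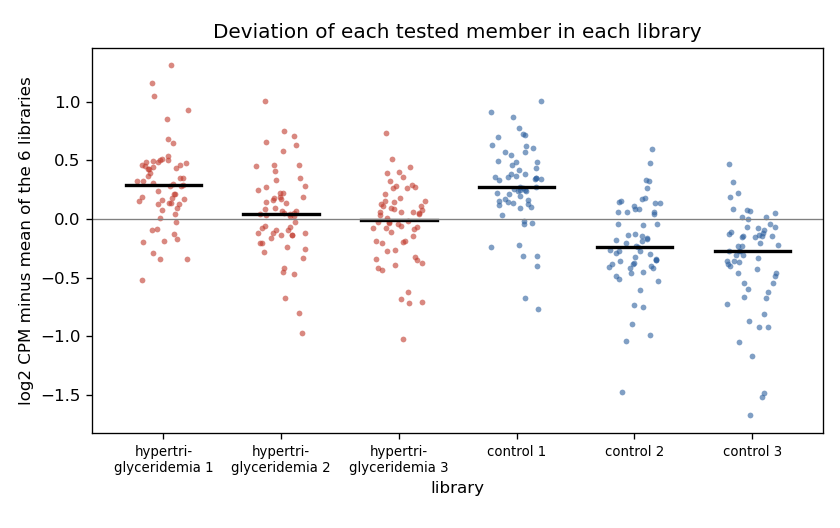
Deviation of each tested member (log2 CPM minus its mean over the 6 libraries) in each library, 1 point a member, with the median as a black line. The medians are 0.29 in HTG 1 and 0.27 in control 1, close to 0 in HTG 2 and 3, and -0.24 and -0.27 in controls 2 and 3.

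Among the members opposite Rtl1, miR-127-3p comes from the hairpin at chr12:109592846-109592915. It stood at 502, 388 and 364 CPM in HTG 1, 2 and 3, and at 426, 315 and 326 CPM in control 1, 2 and 3. Each group was highest in its library numbered 1, and the groups overlapped. It averaged 418 ± 73.7 CPM in HTG and 356 ± 60.8 CPM in control (SD, n = 3 each). The log2 fold change was 0.23 ± 0.20 (SE) with a 95% interval from -0.23 to 0.70. Its 5p partner, miR-127-5p, had a value of 0.29 ± 0.21.

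From the neighbouring hairpin at chr12:109594506-109594599, miR-434-3p had 130.4, 105 and 92.1 CPM in HTG and 137, 92.4 and 90.5 CPM in control. The pattern was the same in both groups, with 1 high library and a lower pair, and the log2 fold change was 0.03 ± 0.23 (SE). The other arm, miR-434-5p, had a like pattern, with 79.7, 54.4 and 52.5 CPM in HTG and 75.7, 47.3 and 46.7 CPM in control.

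The last hairpin of this segment, at chr12:109595327-109595388, gave another pattern. Its miR-136-3p was even across HTG, at 87.9, 88.1 and 93.5 CPM, and spread across control, at 91.8, 69.0 and 46.6 CPM. Control 1 lay within the HTG range, and the log2 fold change was 0.38 ± 0.25 (SE). The minor arm miR-136-5p had the largest spread of all tested members, with 2.19, 3.45 and 3.66 CPM in HTG and 4.43, 1.15 and 0.731 CPM in control. These rest on 17, 56 and 34 counts in HTG and on 39, 10 and 16 counts in control. Its fold change was 0.60 ± 0.68, and 1.82 without control 1.

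In the Rian segment, miR-370-3p, which in human liver cells has been tied to the fatty acid oxidation gene CPT1A, stood at 6.33, 2.96 and 3.98 CPM in HTG and 4.66, 3.69 and 1.01 CPM in control. The groups overlapped, and control 3 alone was low. The log2 fold change was 0.52 ± 0.60 (SE).

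At the start of the long stretch, miR-379-5p (hairpin chr12:109709060-109709125) and miR-411-5p (hairpin chr12:109710175-109710256) were among the members with the smallest errors. The first had 246, 202 and 236 CPM in HTG and 257, 231 and 169 CPM in control, with a log2 fold change of 0.06 ± 0.20 (SE). The second had 147, 129.7 and 149 CPM in HTG and 160.4, 139 and 133.6 CPM in control. Its fold change was -0.02 ± 0.16, with a 95% interval from -0.39 to 0.34. The groups overlapped for both miRNAs.

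Directly after them, the 5p arms of miR-299a and miR-299b were lower in HTG than in control without overlap. The level of miR-299a-5p was 5.68, 6.10 and 5.70 CPM in HTG and 7.73, 7.38 and 6.90 CPM in control. The log2 fold change was -0.33 ± 0.26 (SE; unadjusted p = 0.242, adjusted p = 0.996 in edgeR), and miR-299b-5p, from shared reads, had 5.68, 5.98 and 5.70 CPM in HTG, 7.73, 7.38 and 6.81 CPM in control and also -0.33. Next along the locus, miR-380-5p had 1.16, 1.17 and 0.753 CPM in HTG and 1.59, 1.73 and 1.23 CPM in control, on 7 to 27 counts a library, and a fold change of -0.53 ± 0.39. The filter's minimum is 10 counts at the median library size, scaled to the other libraries. With 7 counts in HTG 3, miR-380-5p fell under it there, so it needed its controls to be kept for testing. These 3 were all the members whose groups did not overlap on the lower side, or 5% of the 60, where 3.69% of all tested miRNAs did so. With miR-299b left out, since it shares its reads with miR-299a, they were 2 of 58, or 3.45%, close to that share.

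The other 2 of the 5 lower members of smallest p overlapped between the groups. One was miR-134-5p, which in rat neurons represses Limk1 and limits the size of dendritic spines, with 17.8, 7.64 and 9.78 CPM in HTG and 15.6, 15.5 and 10.5 CPM in control. HTG 1 was its highest library, and the log2 fold change was -0.24 ± 0.37 (SE). The other was miR-496a-3p, with 4.91, 1.73 and 3.98 CPM in HTG, 5.11, 5.19 and 1.78 CPM in control and a value of -0.19 ± 0.56.

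The member with the smallest p was miR-666-5p, from the hairpin at chr12:109717085-109717183. It stood at 2.19, 2.03 and 1.72 CPM in HTG and 0.682, 0.692 and 0.777 CPM in control. The values rest on 17, 33 and 16 counts in HTG and 6, 6 and 17 counts in control. The filter's minimum of 10 counts applies at the median library size and is scaled to the other libraries. All controls fell short of it, also control 3, whose 17 counts come from a library of 19773579. The HTG libraries thus kept miR-666-5p for testing. A row kept in this way is selected to be high in 1 group, and the p-value makes no allowance for that. All HTG libraries lay above all controls, averaging 1.98 ± 0.241 CPM in HTG and 0.717 ± 0.0521 CPM in control (SD, n = 3 each). Its log2 fold change was 1.44 ± 0.36 (SE) with a 95% interval from 0.59 to 2.29, and it did not pass (unadjusted p = 0.0048, adjusted p = 0.996 in edgeR). The other arm of the hairpin, miR-666-3p, overlapped between the groups, with 5.68, 2.59 and 2.47 CPM in HTG and 4.20, 1.499 and 1.096 CPM in control, and a value of 0.67 ± 0.61.

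The similar miR-300-3p (hairpin chr12:109724313-109724391) and miR-381-3p (hairpin chr12:109726822-109726896) had similar values. The first was at 28.4, 20.9 and 25.6 CPM in HTG and 24.1, 15.9 and 10.9 CPM in control, and the second at 23.1, 23.1 and 17.6 CPM in HTG and 21.4, 13.6 and 8.09 CPM in control. For each, control 1 lay within the HTG range and controls 2 and 3 below it. The log2 fold changes were 0.56 ± 0.32 and 0.57 ± 0.36 (SE).

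At the Mirg end of the locus, miR-369-3p (hairpin chr12:109743418-109743496, in an exon of Mirg) came second by p among the higher members. It had 110.0, 103 and 91.6 CPM in HTG and 97.2, 60.4 and 46.2 CPM in control. Here too control 1 stood with the HTG libraries. The log2 fold change was 0.58 ± 0.28 (SE; unadjusted p = 0.0705, adjusted p = 0.996 in edgeR), and 0.99 without control 1 (adjusted p = 0.266 in edgeR). With the replicate number as a block it was 0.65 (unadjusted p = 0.0169, adjusted p = 0.559 in edgeR). That fit gave 3 members an unadjusted p under 0.05, where 5.53% of all tested miRNAs had one: miR-369-3p, miR-666-5p and miR-381-3p.

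The abundant miR-541-5p (hairpin chr12:109742409-109742498, in an intron of Mirg) separated the groups by a small margin. It was at 145, 139.9 and 132 CPM in HTG and 128, 95.6 and 116 CPM in control. The log2 fold change was 0.30 ± 0.17 (SE) with a 95% interval from -0.09 to 0.69. The other members whose groups did not overlap on the higher side, besides miR-666-5p, were miR-154-3p (0.41 ± 0.28), miR-376c-3p (0.31 ± 0.22) and miR-410-3p (0.34 ± 0.25), a miRNA linked to insulin secretion in mouse islet cell lines. For miR-154-3p the levels were 7.10, 8.75 and 6.13 CPM in HTG and 5.34, 5.53 and 5.71 CPM in control. For miR-376c-3p they were 15.8, 17.997 and 16.3 CPM in HTG and 14.8, 11.3 and 14.3 CPM in control, and for miR-410-3p 10.2, 8.51 and 9.14 CPM in HTG and 6.59, 7.96 and 7.40 CPM in control. Together these 5 were 8.33% of the 60 members, where 4.3% of all tested miRNAs separated on the higher side. With scaling by library size alone 1 member did so (2.46% of all tested miRNAs), with the TPM values 1 (2.66%), and without a filter on low counts 8 of 89 (3.34% of all 1077). Those 1077 hold relatively more rows of few counts than the 89. With 1 library left out, members separated on the higher side numbered 5 without HTG 1 (12.2% of all tested miRNAs), 9 without HTG 2 (7.13%), 9 without HTG 3 (6.96%), 28 of 64 without control 1 (11.7%), 6 without control 2 (5.49%) and 7 without control 3 (7.17%). On the lower side they numbered 5 (15.8%), 5 (7.13%), 3 (7.55%), 3 (12.7%), 3 (4.51%) and 4 (7.57%) in the same order. Without both number 1 libraries, 30 separated on the higher side (19.6%) and 7 on the lower (27.3%).

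The arms of a hairpin gave a comparison within each library, which does not depend on the scaling. Of 42 hairpin numbers with both arms in the table, 25 had more 3p and 17 more 5p reads in total. The bias ranged from near balance, at 474 counts for miR-154-3p and 459 for miR-154-5p, to 1106 counts for miR-376c-3p and 2 for miR-376c-5p. The hairpins below show the 3p and the 5p kind, with the arms in capitals. Those of miR-127 and miR-136 gave mostly the 3p arm and those of miR-379 and miR-411 mostly the 5p arm.
Mir127: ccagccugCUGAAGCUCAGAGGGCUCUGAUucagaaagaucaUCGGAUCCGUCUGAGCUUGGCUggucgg
Mir136: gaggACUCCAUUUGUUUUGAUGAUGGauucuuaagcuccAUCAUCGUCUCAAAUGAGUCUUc
Mir379: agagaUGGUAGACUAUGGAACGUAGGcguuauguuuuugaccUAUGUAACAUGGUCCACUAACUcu
Mir411: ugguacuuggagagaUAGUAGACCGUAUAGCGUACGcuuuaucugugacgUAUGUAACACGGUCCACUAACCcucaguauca

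The first base of a mature miRNA is known from human Argonaute proteins to influence which arm is loaded, with U and A favoured. In the 39 hairpins with both sequences, the major arm began with U in 18, A in 13, G in 6 and C in 2. The minor arm began with U in 13, A in 14, G in 5 and C in 7. Over all 85 members with a sequence, 38.8% began with U and 34.1% with A, against 42.8% and 25.5% of the other 816 miRNAs of the table with a RefSeq sequence.

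The arm balance showed no difference between the groups beyond the spread of the libraries. In the 19 hairpins with both arms tested, the log2 ratio of 3p over 5p counts (0.5 added to each) overlapped between the groups in every case. For miR-127 it was 3.02, 2.73 and 2.39 in HTG and 2.66, 2.90 and 2.84 in control, and for miR-379 it was -4.45, -4.03 and -4.75 in HTG and -4.05, -4.96 and -4.08 in control. The steadiest ratio was that of miR-434, at 0.71 to 0.94 in HTG and 0.86 to 0.97 in control. The exact two-sided permutation test gave an adjusted p of 0.95 or more for all 19, but 3 against 3 libraries cannot go below an unadjusted p of 0.1. The difference of the group means ran from -0.62 for miR-666 to 0.73 for miR-380. In 16 of the 19 hairpins both arms had a fold change of the same sign, with miR-299a and miR-299b, which share reads, counted separately. With 76.7% of the tested members above 0, many arms would share a sign without any link between them. No conclusion is drawn from that count.

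**Figure D4:**
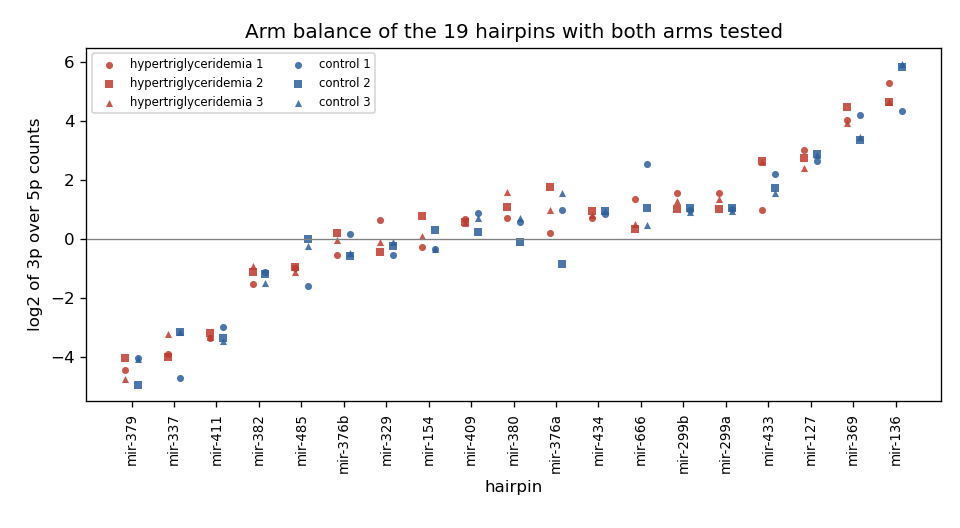
Log2 ratio of 3p over 5p counts in each HTG (red) and control (blue) library for the 19 hairpins with both arms tested, ordered by mean. Ratios run from miR-379, with 19.5 times more 5p counts in total, to miR-136, with 31.4 times more 3p counts, and the colours overlap at every hairpin.

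Other miRNAs of the locus and of other imprinted loci were set beside the members. Of 9 further miRNA names placed in the Dlk1-Dio3 region, 5 occurred in the table with 7 rows, and only miR-1247-5p was tested. It stood at 4.52, 2.65 and 2.69 CPM in HTG and 3.07, 4.15 and 6.44 CPM in control, with a log2 fold change of -0.49 ± 0.41 (SE). Of the miRNAs of other imprinted genes, 5 rows were tested and 0 were called. The arms of miR-335, from an intron of the paternally expressed gene Mest, differed from the cluster in the order of the HTG libraries. The 3p arm was at 60.3, 286 and 217 CPM in HTG and 174, 43.6 and 55.2 CPM in control (1.05 ± 0.68), so that HTG 1 was the lowest of its group while control 1 was the highest of the controls, as for the cluster. The 5p arm was at 130.00, 245 and 229 CPM in HTG and 133, 124 and 177 CPM in control (0.48 ± 0.27), with HTG 1 the lowest of its group. The single late-numbered member, miR-1193, had a tested 3p arm at 2.32, 6.78 and 2.04 CPM in HTG and 3.98, 3.69 and 3.02 CPM in control, and 20 counts in all for its 5p arm.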

How the data were processed

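The deposited table gives whole-number read counts per mature miRNA and library and, beside them, a signal named TPM per the file headers, whose scaling is not described. The TPM columns sum to between 1017264 and 1019868. Per the labels' protocols, RNA was taken with Trizol and a NEXTflex small RNA kit (v3) gave the libraries. The submitters' processing notes list Bowtie 1.1.1 and GRCm38, without their roles. No source used here states the trimming, the miRNA release or the mismatches allowed.

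Counts were tested in R 4.3.3 by edgeR 4.0.16 (low counts removed by filterByExpr, min.count 10 and min.total.count 15; TMM scaling, quasi-likelihood test and Benjamini-Hochberg at 0.05 over 488 miRNAs), after the code was tested on simulated data. DESeq2 1.42.0, limma 3.58.1, other scalings, no filter, a replicate block and leaving out each library were alternatives. Sequences are RefSeq's on GRCm38.p6. The libraries were numbered 1 to 3 in both groups by the labels. Over all tested miRNAs, the deviations of same-numbered libraries from their group means had correlations of 0.455, 0.185 and 0.247. On that ground they were set side by side as pairs, but it does not show that the samples were paired. Libraries of unlike number were not correlated for comparison. Deviations within a group cancel out, so a profile shared by the libraries numbered 1 alone would raise the other correlations too. Over the members the correlations were -0.01, -0.35 and 0.04. A correlation over members cannot see a shift shared by the whole cluster, such as the high libraries numbered 1. Unless the block is named, SE, intervals, p-values and overlap calls come from fits that leave these numbers aside, as does the permutation test of the arms. The SE was worked back from the edgeR test, as the size of the log2 fold change over the square root of its F statistic. The intervals were built from that SE.

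Members given in full were the 8 most abundant, the 5 of smallest p in each direction, those without overlap and the 3 with the largest SD. A fold change counts as reversed only where its sign turned and it moved by more than its SE. Markers and lists were set with earlier results of these data known, as were the members.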

Additional observations from a re-analysis of the deposited data

How the results depend on the processing

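The count of called members was 0 under all 14 alternatives, including the replicate block, which changed no call. Over all tested miRNAs, calls numbered 1 of 1077 without a filter, 2 of 505 without control 1 and 4 of 509 without both libraries numbered 1. In the other alternatives they numbered 0. The count above 0 was 45 of 60 with the block, 44 with limma-voom, 42 with limma on TPM and 67 of 89 without a filter, and leaving out 1 library gave 36 to 57. The median log2 fold change of members ran from 0.049 to 0.44 over the fits that left out 1 library. Members separated on the higher side numbered 5 in the reported fit, 1 with library size scaling (2.46% of all tested miRNAs) or the TPM values (2.66%), 8 without a filter (3.34%) and 30 without both libraries numbered 1, where 19.6% of all tested miRNAs separated. On the lower side they numbered 3, and 7 without both libraries numbered 1 (27.3% of all). The share without a filter is over all 1077 miRNAs, which hold relatively more rows of few counts than the members. Leaving out 1 library gave 5 to 28 on the higher and 3 to 5 on the lower side. The highest count, 28 of 64, came without control 1, where 11.7% of all tested miRNAs separated. The share of counts was 0.310% in HTG and 0.262% in control when miR-148a-3p was left out of the total. Of the 19 hairpins with both arms tested, 0 had arm ratios that separated, and 0 to 6 did with 1 library left out. Groups of 2 and 3 libraries separate more readily than groups of 3. Hairpins outside the cluster were not counted, so no conclusion is drawn from that range. Of 308 values of the 22 members given in full, 0 turned sign by more than the SE, and 12, in 5 members, turned within it. The cause of these shifts was not tested. Depth limits the 33 tested members under 10 CPM and the 29 that the filter left out.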
